A study of Mus musculus with 6 samples.

Results

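The small leucine-rich proteoglycans (SLRPs) are secreted matrix proteins built on a core of leucine-rich repeats. The set described here holds 10 mouse genes, Dcn, Bgn, Aspn, Lum, Fmod, Kera, Prelp, Omd, Ogn and Podn. They were taken by symbol from the 55487 genes of the deposited tables, with earlier results of these data known. Their RNA was measured by RNA-seq in mouse embryonic fibroblasts (MEFs), connective-tissue cells grown out of embryos. The libraries were titled WT (wild type) or KO (knockout) and came from passages 2, 3 and 4, a passage being one detachment and replating of a culture, with 1 library for each genotype and passage. All cultures were untreated and kept under normal culture, per the labels, and the only contrast the series states is WT against KO MEFs. The labels name neither the deleted gene nor the strain, the embryonic age or the number of embryos. Within a genotype the 3 passages may therefore be 1 culture sampled repeatedly, and the p-values measure only the spread between these libraries. Groups follow the library titles, because the genotype field calls the KO-titled cells of passages 3 and 4 WT.

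SLRPs coat collagen fibrils and limit their sideways growth, and several of them bind TGF-beta or cell surface receptors. Decorin (Dcn) and biglycan (Bgn) carry chondroitin or dermatan sulfate chains. Asporin (Aspn) is closest to them in sequence but lacks such a chain. Lumican (Lum), fibromodulin (Fmod) and keratocan (Kera) can carry keratan sulfate, and Prelp and osteomodulin (Omd) belong to the same class. Osteoglycin (Ogn) is a member of a separate class, and podocan (Podn) stands apart from all of these. Fibroblasts of skin, tendon and other connective tissue are a main source of the family.

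Of the 10 genes, 8 fall into 3 clusters in the genome (build GRCm38, positions from GENCODE release M21). On chromosome 10 lie Dcn (ENSMUSG00000019929, 97479609 to 97518143), Lum (ENSMUSG00000036446, 97565128 to 97572703) and Kera (ENSMUSG00000019932, 97606879 to 97613692), all on the plus strand, with gaps of 47.0 and 34.2 kb. On chromosome 13 lie Aspn (ENSMUSG00000021388, 49544443 to 49567565), Omd (ENSMUSG00000048368, 49582462 to 49592822) and Ogn (ENSMUSG00000021390, 49608046 to 49624501), also on the plus strand, with gaps of 14.9 and 15.2 kb. On chromosome 1 Prelp (ENSMUSG00000041577, 133910304 to 133921414, minus strand) and Fmod (ENSMUSG00000041559, 134037254 to 134048277, plus strand) are 115.8 kb apart and transcribed away from each other. No other protein-coding gene lies wholly within these gaps. Cenpp, on the opposite strand, overlaps Aspn, Omd and Ogn and so spans both gaps on chromosome 13. Podn (ENSMUSG00000028600, chromosome 4, 108014791 to 108096445, minus strand) and Bgn (ENSMUSG00000031375, chromosome X, 73483602 to 73495933, plus strand) stand alone.

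The 250 bases before the RefSeq start site (GRCm38.p6, plus strand) are shown for the chromosome 13 neighbours. Beside them stand Fmod, which was called lower in KO, and Bgn, the most abundant member. The KO to WT ratios of the chromosome 13 genes were each highest at passage 4, and so were those of Bgn and Prelp. The windows are chr13:49544193-49544442 for Aspn, chr13:49582212-49582461 for Omd, chr13:49607765-49608014 for Ogn, chr1:134037004-134037253 for Fmod and chrX:73483351-73483600 for Bgn. Capitals mark matches, on either strand, to 5 short motifs that are spelled out after the sequences.
Aspn: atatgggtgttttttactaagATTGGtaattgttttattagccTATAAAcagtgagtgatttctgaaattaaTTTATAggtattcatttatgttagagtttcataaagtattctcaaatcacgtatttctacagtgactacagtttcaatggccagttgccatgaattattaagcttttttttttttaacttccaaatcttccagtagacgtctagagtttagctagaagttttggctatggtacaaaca
Omd: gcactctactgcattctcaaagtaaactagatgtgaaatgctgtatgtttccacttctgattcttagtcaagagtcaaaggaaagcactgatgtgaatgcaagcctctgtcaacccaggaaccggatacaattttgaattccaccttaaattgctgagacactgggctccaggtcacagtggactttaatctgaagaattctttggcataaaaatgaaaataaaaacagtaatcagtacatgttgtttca
Ogn: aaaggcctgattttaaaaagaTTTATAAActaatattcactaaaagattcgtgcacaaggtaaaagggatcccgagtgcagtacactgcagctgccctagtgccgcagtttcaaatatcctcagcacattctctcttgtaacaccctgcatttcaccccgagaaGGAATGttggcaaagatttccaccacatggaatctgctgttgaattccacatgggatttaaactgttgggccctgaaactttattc
Fmod: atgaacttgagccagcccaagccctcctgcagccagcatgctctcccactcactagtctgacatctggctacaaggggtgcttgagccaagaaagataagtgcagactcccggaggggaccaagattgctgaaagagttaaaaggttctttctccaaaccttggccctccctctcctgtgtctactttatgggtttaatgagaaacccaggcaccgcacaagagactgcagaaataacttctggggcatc
Bgn: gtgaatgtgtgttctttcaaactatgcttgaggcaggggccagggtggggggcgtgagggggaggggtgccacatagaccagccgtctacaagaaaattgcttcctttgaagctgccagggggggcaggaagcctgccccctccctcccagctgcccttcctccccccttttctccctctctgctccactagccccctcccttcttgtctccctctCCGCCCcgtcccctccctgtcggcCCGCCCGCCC
The Aspn, Omd and Ogn windows held 30.0%, 38.4% and 42.0% G and C, below the median of 52.4% over the 32851 mouse promoters of the RefSeq table, whereas Fmod held 51.2% and Bgn 64.4%. The TATA box letters TATAAA occurred in 12.4% of all those promoters. Aspn had it at position -207 (counted from the start site, leftmost printed base) and reversed at -178, and Ogn at -227 with an overlapping reversed match at -229. The GC box GGGCGG occurred in 32.7% of promoters, and the Bgn window held it reversed at -34, -10 and -6, the last pair overlapping. CCAAT (33.8% of promoters) was matched once in the Aspn window, reversed, at -229, and the TEAD factor motif GGAATG (12.6%) once in the Ogn window, at -86. The AP1 factor motif TGANTCA (6.75% of promoters) matched none of these windows, and the Omd and Fmod windows held none of the motifs. Windows for 8 of the 10 members were matched in that table.

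Library totals ran from 24853121 to 67760880 expected counts. The cell type label was checked against 10 fibroblast markers, whose summed TPM (a level scaled for transcript length and to a fixed library total) was 13069.7 to 16648 in WT and 10106 to 11034 in KO. Of these 10, 3 fell in KO (Col1a1, Col1a2 and Pdgfra), beside 1.55% of all tested genes. Macrophage genes summed to 79.9 to 566 TPM in WT and 72.8 to 388 in KO, and adipocyte genes to 162 to 364 and 105 to 223. The sums were smaller or overlapped these ranges for neural (64.8 to 89.8 in WT, 76.9 to 102 in KO), endothelial (83.4 to 90.1, 48.7 to 69.3), skeletal muscle (20.2 to 41.4, 63.5 to 161), cartilage and bone (35.5 to 41.5, 30.2 to 40.5) and epithelial cells (1.47 to 21.4, 5.39 to 14.99), and Myf5, a muscle determination gene, was at 0 in every library. Called by edgeR with genotype alone among these other markers were Flt1 (lower in KO), Acta1 and Col2a1 (both higher). With passage as a block, edgeR called 6.37% of all tested genes lower and 4.69% higher. Among 11 tested macrophage markers 5 were called lower in KO that way (all 11 estimates negative, median -0.69). The block also called 2 cartilage and bone, 1 endothelial and 1 adipocyte marker lower, and 2 muscle, 1 cartilage and bone, 1 neural and 1 epithelial marker higher. Their part in the results on SLRPs was not tested, and in bulk RNA fewer cells of a type and less RNA per cell cannot be told apart. The WT libraries carried Y-linked transcripts and almost no Xist, the RNA of the inactive X chromosome (5.11, 12 and 5 counts), and the KO libraries held 15654, 29034 and 17819.5 Xist counts. Genotype and sex therefore cannot be told apart in any comparison of WT with KO, including that of the X-linked Bgn. In the KO library of passage 4, 4 Y-linked genes were at 0.443% to 0.982% of their WT mean.

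Per transcript length the family spanned more than 4 orders of magnitude and was led by Bgn, with 4409.7, 3986 and 4055 TPM in WT at passages 2, 3 and 4 and 2681, 3029 and 3739 TPM in KO. Bgn ranked 6 among 21974 protein-coding genes in each WT library, and 17, 9 and 7 in the KO libraries. It made up 79.6% to 83.4% of the summed TPM of the 10 genes in WT and 86.7% to 87.4% in KO. Dcn followed with 555, 615 and 478 TPM in WT and 320, 331 and 282 in KO. Aspn, the third, had 140, 202 and 224 TPM in WT and 26.7, 50.5 and 157 in KO.

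The middle of the order held Lum (mean 60.6 TPM in WT, 16.7 in KO), Ogn (47.7 and 35.6) and Fmod (33.8 and 12.6). Below them stood Prelp (18.1 and 5.14 TPM) and Podn (16.1 and 3.75). Omd (0.42 and 0.377) and Kera (0.133 and 0.02) closed the order. In WT the ranges of neighbours in this order overlapped for Lum with Ogn and for Prelp with Podn, so that neither pair was ordered beyond the spread of the 3 libraries. In KO, Aspn, Ogn, Lum and Fmod formed a run in which each overlapped the next, and Prelp again overlapped Podn. The summed level of the 10 genes was 5288, 5006 and 4902 TPM in WT and 3091, 3467 and 4279.6 TPM in KO, and without Bgn 878, 1019 and 847 against 410.5, 438 and 540.4. The KO libraries lay below the WT libraries in both sums.

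**Figure D1:**
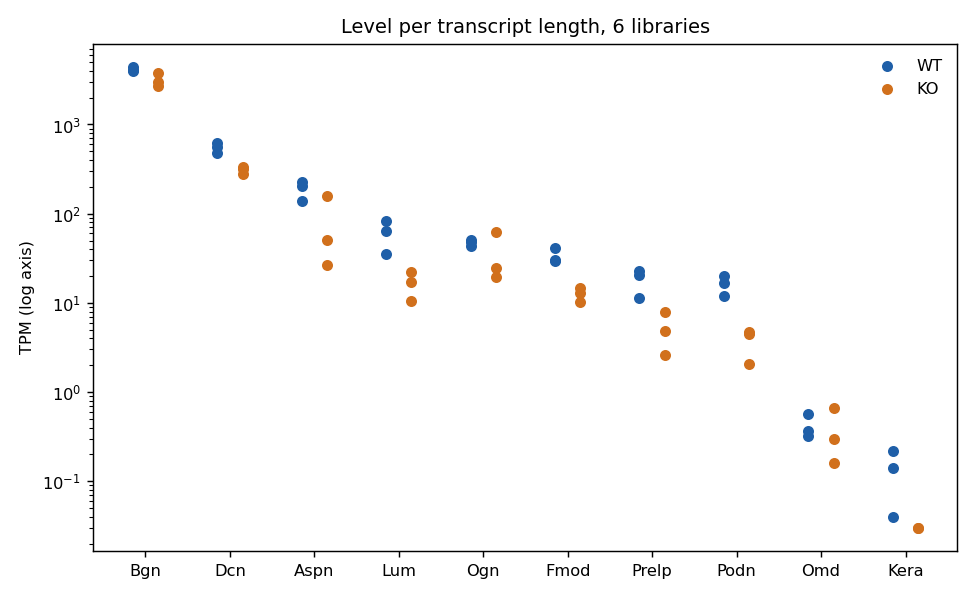
TPM of the 10 SLRP genes on a log axis, with 1 point per library (blue WT, orange KO) and genes ordered by their WT mean. Bgn reached 4409.7 TPM and Kera lay below 1, and the KO points of Bgn, Dcn, Lum, Fmod, Prelp and Podn lay below every WT point of the same gene. The KO library with Kera at 0 has no point.

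Between genotypes, 9 of the 10 genes passed the filter on low counts and were tested with edgeR, and 3 of them, Podn, Fmod and Dcn, fell in KO with an adjusted p under 0.05. Over all 16603 tested genes 1.55% were called lower. Each of the 9 had a negative log2 change, with a median of -1.48, whereas over all tested genes 51.6% were negative and the median was -0.01. For 6 of the 9 (Dcn, Bgn, Lum, Fmod, Podn and Prelp) every KO library lay below every WT library in CPM (counts per unit of TMM-scaled library size), which held for 14.1% of all tested genes. The same passages were sampled in both genotypes, and with passage as a block edgeR called 6 members lower (Podn, Dcn, Lum, Fmod, Bgn and Aspn), beside 6.37% of all genes. DESeq2 called Podn, Fmod, Lum, Prelp, Dcn and Bgn, beside 5.52% of all genes. Grouping by the genotype label in place of the titles leaves the KO library of passage 2 alone against all others, so calls under it were not read. The edgeR estimates of the 9 genes then ran from -2.49 (Aspn) to -0.43 (Bgn).

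**Figure D2:**
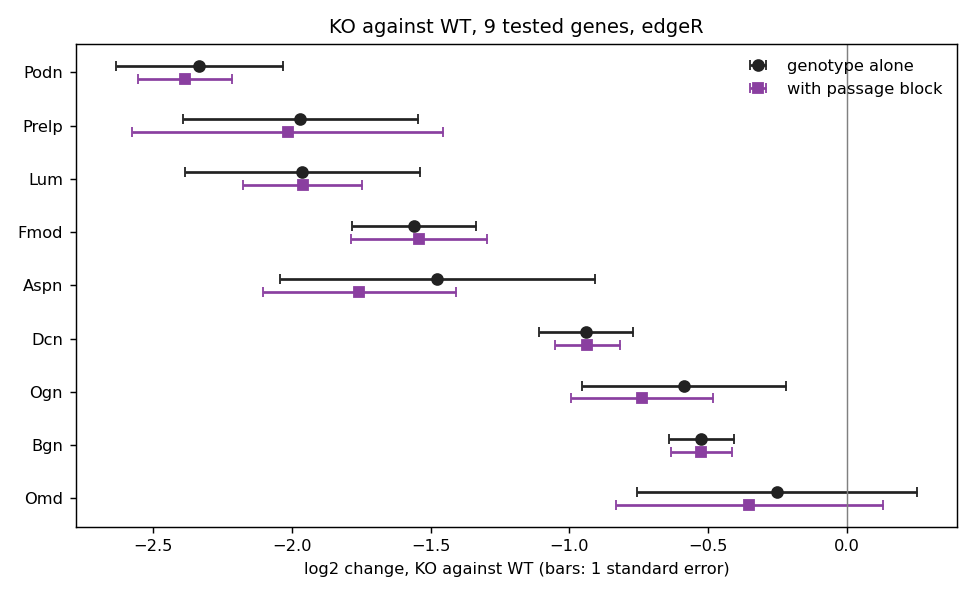
Log2 change of KO against WT for the 9 tested SLRP genes with bars of 1 standard error, from edgeR with genotype alone (black circles) and with passage as a block (purple squares). Every estimate lay below 0, from -2.33 for Podn to -0.25 for Omd with genotype alone.

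Among the members with chondroitin or dermatan sulfate chains, Dcn, which binds collagen and TGF-beta, measured 509, 679 and 488 CPM in WT at passages 2, 3 and 4 and 325, 306 and 242 CPM in KO. The highest KO library lay below the lowest WT library. The means were 558 ± 105 and 291 ± 43.4 CPM (SD, n = 3), a 1.92-fold lower level (log2 -0.94 ± 0.17 SE, edgeR adjusted p = 0.0370). With the passage block the adjusted p was 0.00634. The call was lost when any of 5 single libraries was left out, with adjusted p of 0.0686 to 0.177, and held only without the WT library of passage 4. The change itself stayed between -0.77 and -1.03.

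Bgn, its paralogue on the X chromosome and a ligand of Toll-like receptors when released from matrix, measured 5257, 5998 and 5467 CPM in WT and 3668, 3759 and 4205 CPM in KO. The groups did not overlap, and the difference was the smallest of those that did not. The mean went from 5574 ± 382 to 3877 ± 287 CPM (log2 -0.52 ± 0.12 SE, edgeR adjusted p = 0.0692). The change passed with the passage block (adjusted p = 0.0290), with DESeq2 (adjusted p = 0.000204) and without the filter on low counts (edgeR adjusted p = 0.0300). It did not pass with log2(TPM + 1) (log2 -0.41, limma adjusted p = 0.377). Nor did it pass when any single library was left out (edgeR adjusted p = 0.0848 to 0.312). Each KO library held 62.7% to 76.9% of the WT level of its passage.

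Aspn, which competes with decorin for collagen, varied widely by passage. WT held 171, 297 and 306 CPM, and KO 36.3, 62.3 and 180.2 CPM. KO was at 21.2%, 20.9% and 58.8% of WT in the respective passages. The groups overlapped, because the KO library of passage 4 lay just above the WT library of passage 2. With genotype alone the log2 change was -1.48 ± 0.57 SE (edgeR adjusted p = 0.199), and with the passage block it was -1.76 (adjusted p = 0.0460). With genotype alone it was -2.39 (adjusted p = 0.0389) when the passage 4 KO library, the highest of KO, was left out. Leaving out any other single library gave -1.09 to -1.71 (edgeR adjusted p = 0.215 to 0.504).

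In the lumican class, Lum, known for its role in corneal transparency and skin strength, measured 84.1, 128 and 50.7 CPM in WT and 32.3, 22.6 and 12.8 CPM in KO. All KO libraries lay below all WT libraries. The means were 87.7 ± 38.9 and 22.5 ± 9.76 CPM (3.90-fold lower, log2 -1.96 ± 0.42 SE), with an edgeR adjusted p of 0.0674 for genotype alone and 0.00708 with the passage block. DESeq2 gave an adjusted p of 2.02e-05.

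Fmod, a collagen-binding member abundant in tendon and cartilage, measured 49.4, 82.8 and 56.9 CPM in WT and 24.0, 17.1 and 23.1 CPM in KO. No KO library reached the WT range. The means were 63.1 ± 17.5 and 21.4 ± 3.75 CPM (2.95-fold lower, log2 -1.56 ± 0.22 SE, edgeR adjusted p = 0.0192). The call was lost without the WT library of passage 3 (adjusted p = 0.0726) or the KO library of passage 3 (adjusted p = 0.0989), the pair with the widest gap.

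Prelp, a heparin-binding protein anchored at basement membranes, measured 39.3, 52.8 and 24.3 CPM in WT and 10.3, 5.15 and 14.6 CPM in KO. The groups were separate, and KO ranged from 9.76% of WT at passage 3 to 60.0% at passage 4. The mean was 38.8 ± 14.2 against 10.01 ± 4.73 CPM (3.92-fold lower, log2 -1.97 ± 0.42 SE, edgeR adjusted p = 0.0662, and 0.0996 with the passage block). DESeq2 called it (adjusted p = 2.22e-05). An antisense gene, Gm15851, shares 9.68% of the Prelp exon bases and had at most 2.02 counts in a library.

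The other members of the lumican class were near the limit of detection. Omd, found mainly in bone, had 0.284, 0.601 and 0.331 CPM in WT and 0.216, 0.258 and 0.572 CPM in KO. That came to 44 counts in WT and 42 in KO, a ratio of 0.788 after scaling (exact 95% interval 0.504 to 1.23, counting error only), and a difference was not detectable at this depth. Kera, a keratan sulfate proteoglycan best known from the cornea, had 2, 8 and 7 counts in WT and 1, 0 and 1 in KO. Pooled, its KO to WT ratio was 0.0971 (exact 95% interval 0.0109 to 0.409). It did not pass the filter and was not tested, and a count of 0 allows up to 3 counts, or 0.0431 to 0.124 CPM depending on the library.

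Ogn, first isolated from bone and made by many connective tissues, measured 65.5, 72.0 and 78.1 CPM in WT and 29.3, 33.6 and 80.8 CPM in KO. The first KO passages lay well below WT and the last lay above every WT library. The log2 change over all passages was -0.59 ± 0.37 SE (edgeR adjusted p = 0.413, and 0.125 with the passage block). With genotype alone it was -1.19 (adjusted p = 0.0196) when the passage 4 KO library, the highest, was left out. Leaving out any other single library gave -0.33 to -0.66 (edgeR adjusted p = 0.448 to 0.749).

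Podn, a collagen-binding inhibitor of smooth muscle cell growth, had the largest change of the 9 tested members. It measured 30.0, 22.1 and 28.7 CPM in WT and 7.61, 3.30 and 5.31 CPM in KO. The KO libraries held 25.4%, 14.9% and 18.5% of WT at passages 2, 3 and 4. The mean went from 26.9 ± 4.21 to 5.41 ± 2.16 CPM (5.05-fold lower, log2 -2.33 ± 0.30 SE, edgeR adjusted p = 0.0155, and 0.00107 with the passage block). Leaving out the WT library of passage 3 ended the call with genotype alone (log2 -2.45, adjusted p = 0.0772). Podn lies on the same strand as Scp2, with which it shares no exon bases and which itself fell in KO (log2 -0.54, adjusted p = 0.0361).

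**Figure D3:**
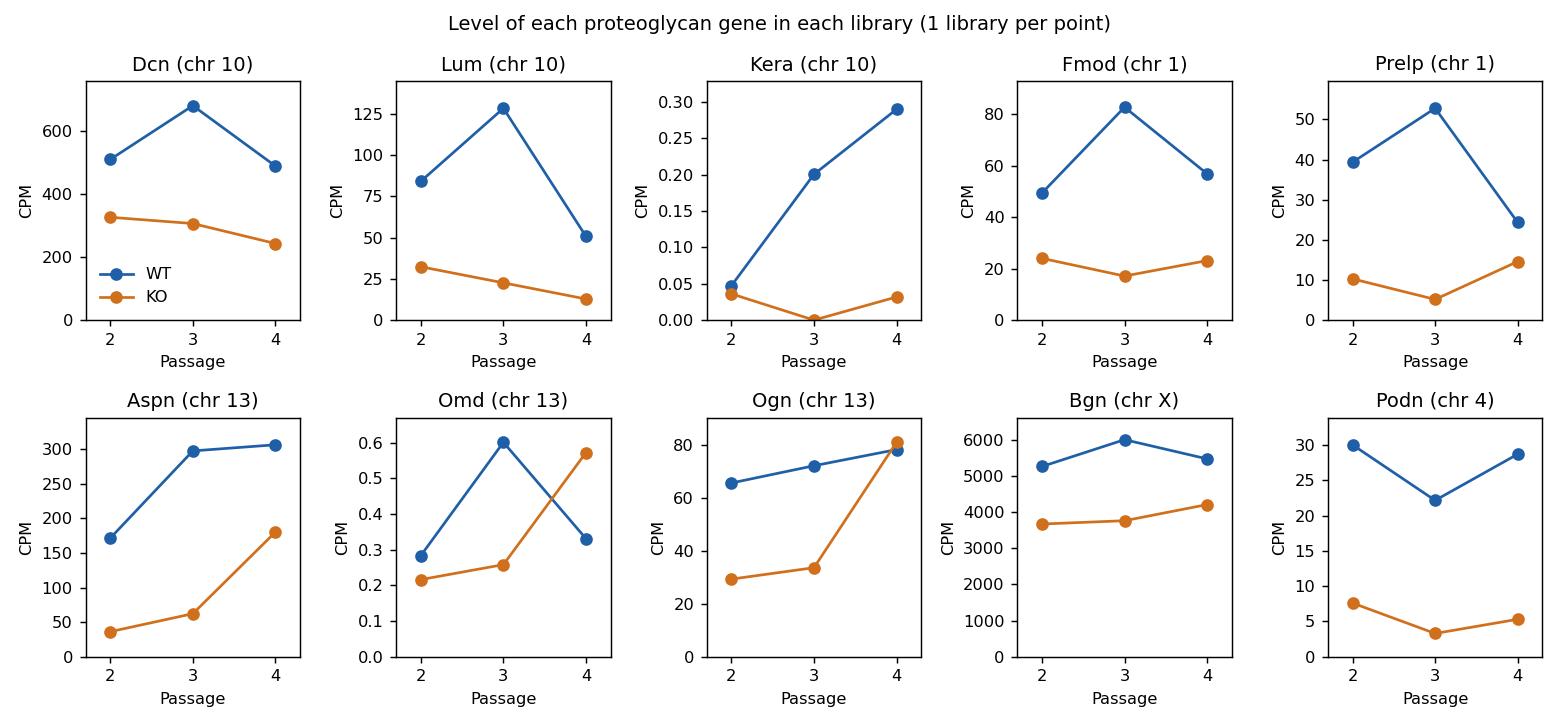
CPM of each SLRP gene by passage, with 1 point per library, WT in blue and KO in orange, each panel on its own axis from 0. KO lay below WT at every passage for 8 of the panels, and the lines of Ogn and Omd crossed between passages 3 and 4. Kera rests on 0 to 8 counts per library.

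By passage, with genotype held constant, Aspn rose by 0.81 ± 0.18 SE log2 units per passage (edgeR adjusted p = 0.0493), and edgeR called no other member. Over all tested genes 2.78% were called higher and 3.48% lower. This call was close to the threshold: it was lost with voom, upper-quartile scaling, effective lengths as offsets or passage as 3 levels (adjusted p = 0.0516 to 0.110), and without any 1 of 5 libraries (adjusted p = 0.0640 to 0.314), all but the WT library of passage 4. Ogn had a slope of 0.44 (adjusted p = 0.158) and Omd of 0.45 (adjusted p = 0.444), in the same direction as their neighbour Aspn. Lum had -0.52 (adjusted p = 0.192). DESeq2 called Aspn and Ogn higher (adjusted p = 1.18e-05 and 0.0300) and Lum lower (adjusted p = 0.0178), beside 4.64% of all genes called higher and 5.65% lower. The estimates for Dcn (-0.12), Podn (-0.14), Bgn (0.06), Fmod (0.03) and Prelp (0.00) had adjusted p of 0.511 or more. Over the same passages 11 of 11 tested macrophage markers and 5 of 6 adipocyte markers fell. So did 3 of 9 endothelial, 3 of 7 epithelial, 3 of 9 neural and 2 of 4 skeletal muscle markers. No fibroblast or cartilage and bone marker was called. The part of these markers in the slopes of SLRP genes was not tested.

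The difference between the KO and WT slopes was tested as an interaction, and edgeR called 0 of 16603 genes, with 6.85% at an unadjusted p under 0.05, whereas DESeq2 called 0.500%. The largest differences among the members were those of Aspn (0.74 ± 0.20 SE log2 units per passage, unadjusted p = 0.00921, adjusted p = 0.574) and Ogn (0.61 ± 0.19, unadjusted p = 0.0174, adjusted p = 0.619). Both had a steeper slope in KO. Omd had 0.60 ± 0.59 and Prelp 0.60 ± 0.48. The other members lay between -0.31 (Lum) and 0.07 (Bgn). Without the filter on low counts, edgeR called 289 of 31578 genes, Aspn and Ogn among them (adjusted p = 1.79e-05 and 0.00103). No other setting called a member.

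Within each passage 1 KO library stood against 1 WT library, so these ratios carry no test. On chromosome 10 Dcn had log2 ratios of -0.64, -1.15 and -1.01 at passages 2, 3 and 4, and Lum -1.38, -2.51 and -1.99. On chromosome 1 Fmod had -1.04, -2.27 and -1.30, and Prelp -1.94, -3.36 and -0.74. On chromosome 13 the ratios were -2.24, -2.26 and -0.77 for Aspn, -1.16, -1.10 and 0.05 for Ogn, and -0.39, -1.22 and 0.79 for the sparsely counted Omd. Bgn had -0.52, -0.67 and -0.38, and Podn -1.98, -2.75 and -2.43. The ratio was lowest at passage 3 in 8 of the 9 genes, Ogn being lowest at passage 2. That minimum rests on 1 pair of libraries, and its share over all genes was not counted. Outside the family Col1a1 and Col3a1 were lowest at passage 3 as well, and B4galt4 at passage 4. Among the 9 members the ratio was highest at passage 4 in Aspn, Omd, Ogn, Prelp and Bgn, and at passage 2 in Dcn, Lum, Fmod and Podn.

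**Figure D4:**
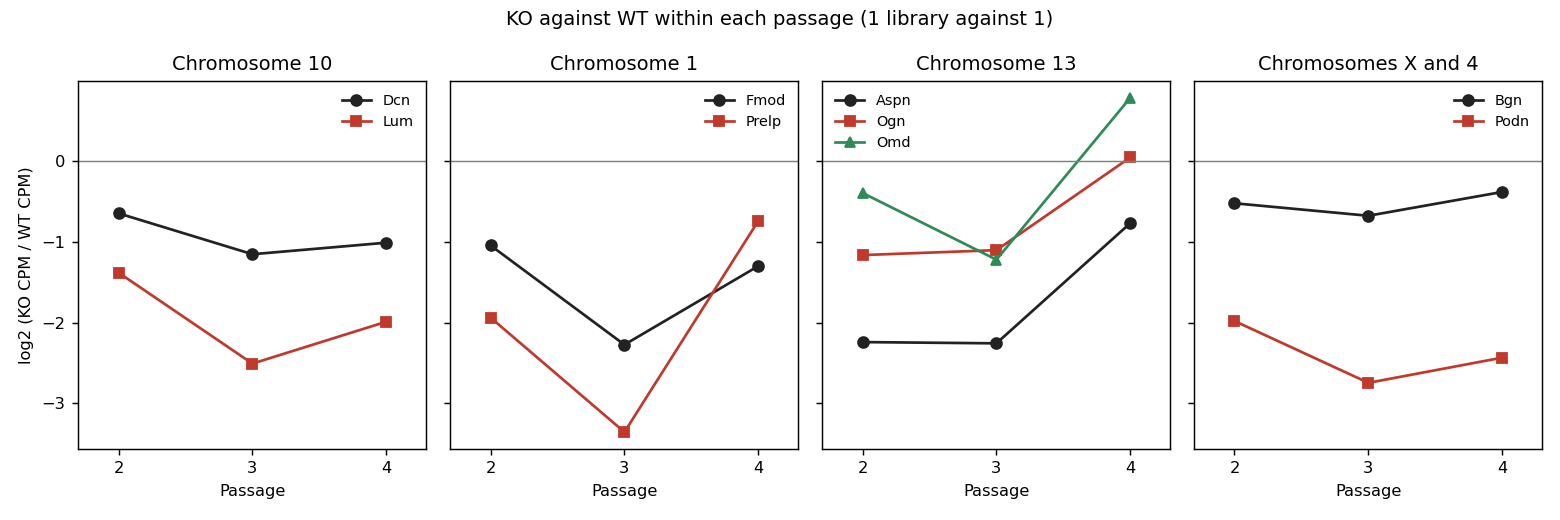
Log2 ratio of KO to WT CPM at passages 2, 3 and 4 for the 9 tested SLRP genes, grouped by chromosome, with 1 library against 1 at each point. Ogn and Omd passed above 0 at passage 4 (0.05 and 0.79), and the other 7 genes stayed below 0 throughout.

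The genes beside the chromosome 13 cluster were read in the same way. Ecm2, a leucine-rich matrix gene just before Aspn, had ratios of -1.10, -0.95 and 0.17 (log2 -0.60 over all passages, edgeR adjusted p = 0.363). Cenpp, a centromere gene on the opposite strand that overlaps all 3 SLRP genes, had -0.53, -0.43 and -0.43. It shares 7 exon bases with Aspn and 0 with Omd and Ogn, and held 60.5 to 189.6 counts per library. Nol8, a nucleolar gene after Ogn, was higher in KO at each passage (log2 0.52, adjusted p = 0.111, and 0.0379 with the passage block). Elsewhere, Btg1 beside Dcn (log2 -0.20), Btg2 beside Fmod (-0.20), Optc beside Prelp (-0.15), Haus7 beside Bgn (-0.14) and Echdc2 beside Podn (-0.25) were not called.

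Across the 6 libraries, log2 CPM of Dcn and Lum had a Pearson correlation of 0.98, Fmod and Bgn of 0.97, Aspn and Ogn of 0.95 and Fmod and Prelp of 0.94. Lum had 0.26 with Ogn and 0.10 with Omd, and Ogn and Omd had 0.76. These values describe libraries that share genotype and passage. Of 13860 tested protein-coding genes outside the family, those whose log2 CPM was most like the mean standardized profile of the 9 tested members over the same 6 libraries were Mill2 (0.997), C1qtnf1 (0.996), Nedd9, Man2a2 and Prss36 (each 0.995). That profile was 0.51, 1.10 and 0.57 in WT and -0.86, -1.02 and -0.29 in KO at passages 2, 3 and 4.

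Of 10 related leucine-rich genes listed, 7 were tested and 1 fell in KO, beside 1.55% of all tested genes. That gene was Islr, a marker of mesenchymal cells, which went from 36.5 ± 9.17 to 10.9 ± 2.63 CPM (log2 -1.74 ± 0.24 SE, edgeR adjusted p = 0.0187). The median of the 7 was -0.43, and each had a negative estimate. Tsku, a secreted signalling modulator and the most abundant of them, had 88.4 ± 8.74 and 76.3 ± 7.05 CPM (log2 -0.21). The estimates for Islr2 (-1.46), Ecm2 (-0.60), Chadl (-0.43), Podnl1 (-0.38), the nearest relative of Podn, and Optc (-0.15) did not pass. Epyc, Chad and Nyx, known from cartilage and eye, had under 0.2 CPM on average and were not tested.

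The enzymes that build the sugar chains were read beside 1.55% of all genes called lower and 0.934% called higher. Of 7 genes for the linker that joins chain to protein 0 were called (median -0.24), among them Fam20b, the most abundant, a xylose kinase, at log2 -0.24. Of 15 tested genes that extend, epimerize and sulfate chondroitin and dermatan sulfate 1 fell, Csgalnact1, which starts chondroitin chains, from 141 ± 11.6 to 77.1 ± 10.5 CPM (log2 -0.87 ± 0.12 SE, edgeR adjusted p = 0.0187). With the passage block 5 fell, beside 6.37% of all genes. The further ones were Chst15, Dsel, Dse (log2 -0.39 with genotype alone, the most abundant) and Chsy3. The median of the 15 was -0.23. Among 9 tested keratan sulfate genes Chst2, a sulfotransferase, rose to 81.6 ± 8.33 CPM in KO from 47.1 ± 9.17 in WT (log2 0.80, edgeR adjusted p = 0.0449, beside 0.934% of all genes called higher). B4galt4, a galactosyltransferase, fell from 11.1 ± 1.06 to 6.20 ± 0.465 CPM (log2 -0.84, adjusted p = 0.0339). B4galt1, the most abundant of that list, had log2 -0.11, and the list median was 0.00. Of 10 genes supplying sulfate and sugar donors, such as Ugdh (log2 -0.04), 0 were called.

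Most collagens on a list of 11 that SLRPs bind were lower in KO. Of the 11 tested, 7 fell with genotype alone, beside 1.55% of all genes, and the median was -0.95. With the passage block 11 fell, beside 6.37% of all genes. Col2a1, a fibrillar collagen outside this list, rose in KO from 0.585 ± 0.350 to 3.72 ± 1.19 CPM (log2 2.62, edgeR adjusted p = 0.0418). Col3a1 fell from 5511 ± 996 to 1808 ± 457 CPM (log2 -1.61, edgeR adjusted p = 0.0171), Col6a2 from 719 ± 29.0 to 311 ± 47.8 (log2 -1.21, adjusted p = 0.00979) and Col6a1 from 1015 ± 71.3 to 469 ± 86.8 (log2 -1.12, adjusted p = 0.0161). Col1a2 (log2 -1.09), Col5a1 (-0.98), Col1a1 (-0.95, the most abundant) and Col5a2 (-0.66) also fell. Of 9 tested genes for processing and crosslinking, 1 rose, beside 0.934% of all genes. It was Pcolce2, an enhancer of procollagen cleavage, which went from 5.47 ± 1.25 to 11.8 ± 1.84 CPM (log2 1.12, edgeR adjusted p = 0.0395). Tll1, a protease of the biglycan-processing family, joined Pcolce2 with the passage block, and Lox, the crosslinking oxidase and most abundant of the list, had log2 -0.53 (adjusted p = 0.187).

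Of 15 genes for TGF-beta ligands, receptors, carriers and readouts 2 fell, beside 1.55% of all genes, and the median was 0.01. With the passage block 4 of the 15 were lower and 2 higher. Tgfbi, a TGF-beta-induced matrix protein, fell from 198 ± 28.8 to 51.5 ± 10.7 CPM (log2 -1.95 ± 0.18 SE, edgeR adjusted p = 0.00483). Tgfbr3, a membrane proteoglycan that presents TGF-beta, fell from 456 ± 55.2 to 272 ± 11.6 CPM (log2 -0.75, adjusted p = 0.0245). Of 11 SLRP receptors 0 were called (median 0.05, Itgb1 the most abundant at 0.05). With the passage block, which called 4.69% of all genes higher and 6.37% lower, 2 were higher and 2 lower. Of 11 proteases known to cleave SLRPs 1 fell, the aggrecanase Adamts4 (66.5 ± 15.7 to 37.0 ± 1.93 CPM, log2 -0.85, edgeR adjusted p = 0.0486), whereas Mmp14, the most abundant, had log2 -0.24. The passage block called 4 of these proteases lower and 1 higher.

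Other proteoglycans were compared as a background to the family. Of 23 tested, 1 fell (Tgfbr3, also counted above), beside 1.55% of all genes, and the median was -0.39. Vcan, the most abundant, had log2 -0.39 (edgeR adjusted p = 0.302, and 0.0456 with the passage block). Under the block 5 of the 23 were lower, beside 6.37% of all genes. Of 6 tested tendon genes 1 fell, Fibin, a secreted protein (log2 -0.65, adjusted p = 0.0257), the median was -0.40 and Tnc, the most abundant, had log2 -0.18.

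**Figure D5:**
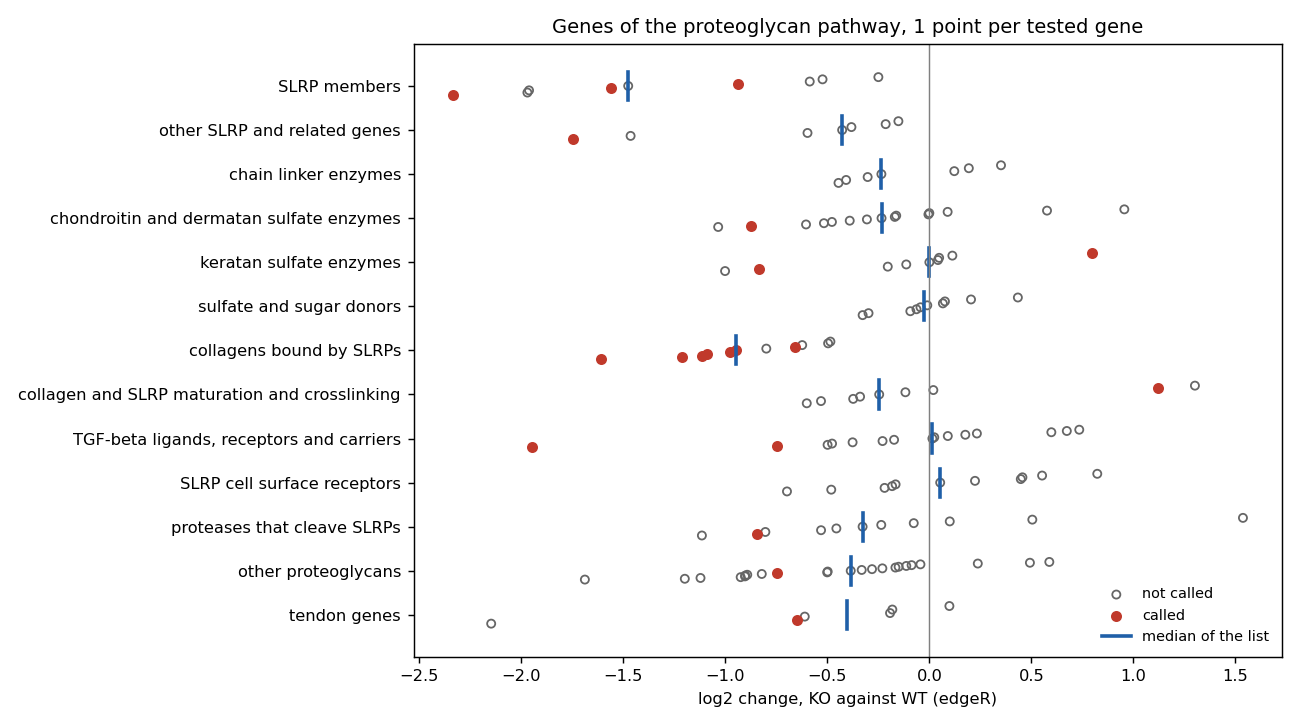
Log2 change of KO against WT (edgeR, genotype alone) for each tested gene of the SLRP set and of 12 related lists, with filled points for called genes and a bar for the median of a list. The medians of the SLRP set (-1.48) and of the collagens (-0.95) lay farthest below 0, and those of the other lists lay between -0.43 and 0.05.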

How the data were processed

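Per the submitters' processing notes, the authors trimmed reads with Trimmomatic 0.39 and quantified them with RSEM on mouse build GRCm38. Not given in the sources used here are RSEM's version, the annotation release and the strand handling. The deposited tables hold RSEM's expected counts, which share ambiguous reads among genes by a model, with TPM and FPKM values that the authors' run scaled for length and depth, and effective lengths. Of 55487 genes 55227 matched GENCODE release M21. Without known strand handling, overlapping antisense genes cannot be separated.

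Expected counts were rounded, filtered by genotype (minimum count 10, leaving 16603 genes), scaled by TMM and tested with edgeR 4.0.16 (robust quasi-likelihood, 2-sided, R 4.3.3) over all genes, with Benjamini-Hochberg adjustment and a threshold of 0.05. Fits held genotype alone (4 residual degrees of freedom), genotype with a linear passage slope (3) or their interaction (2). Log2 changes are given with SE. TPM served for levels between genes, and FPKM gave the same order. DESeq2 1.42.0 and limma 3.58.1 were alternatives. Same-passage libraries of both genotypes deviated together (correlations 0.488, 0.137 and 0.416 over all tested genes), so passage was also fitted as a block. On simulated data the genotype test recovered 17.9% of 1.5-fold, 71.6% of 2-fold and 95.5% of 4-fold changes. The interaction test recovered 2.985% of 1.5-fold, 43.3% of 2-fold and 81.8% of 4-fold changes per passage. Changes were planted only in well-counted genes, so these rates do not cover sparse genes such as Omd. Members, lists and tests were chosen with earlier results of these data known. All members, all related leucine-rich genes, flanking genes that were tested, and from other lists up to 5 called genes with the largest change plus the most abundant gene are named. Of these, 1 is not reported here. Counts below 3 per library cannot be told from 0, and intervals cover counting error only.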

Additional observations from a re-analysis of the deposited data

How the results depend on the processing

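Of 151 estimates of members' genotype changes under alternatives, 125 kept direction and side of the threshold, 13 lost and 12 gained the call and 1 reversed (Omd, 0.18 without the WT library of passage 3). For slopes per passage the numbers were 112 of 143 kept, 10 lost, 6 gained and 15 reversed, and for the interaction 106 of 124, 0, 2 and 16. Causes were not tested.

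With passage as a replicate block the calls between genotypes went from 412 to 1835 genes and from 3 to 6 members. All calls of members with genotype alone also passed with the block. DESeq2 gave 1661 genes and 6 members, no filter 846 genes, log2(TPM + 1) 191 and log2(TPM + 0.1) 168 genes. Leaving out both passage 2 libraries gave 70 genes and 1 member. The genotype label in place of titles leaves the KO library of passage 2 alone in its group, so its calls are not given. Leaving out single libraries gave 44 to 860 genes and 0 to 5 members. Between settings the split of genes called higher and lower was 155 to 257 with edgeR, 98 to 93 with log2(TPM + 1) and 85 to 83 with log2(TPM + 0.1).

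Per passage, 1038 genes and 1 member were called by edgeR, 2443 and 3 without the filter, 1709 and 3 by DESeq2, 608 genes with log2(TPM + 1) and 531 with log2(TPM + 0.1), and 13 and 0 without the passage 2 libraries. Upper-quartile scaling, voom, effective lengths and passage as 3 levels each called 0 members. Leaving out single libraries gave 248 to 1261 genes and 0 to 1 members, and without the WT library of passage 2 or of passage 3 the member called was Lum. For the interaction 0 genes and 0 members were called by edgeR, 289 and 2 without the filter, 83 genes by DESeq2, 1 gene with either TPM setting, and 0 to 11 genes and 0 members without single libraries.

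The slopes per passage that reversed were not called by edgeR (Fmod 0.03, Podn -0.14, Prelp 0.00). Fmod was -0.064 and Podn 0.52 without the passage 2 libraries. Prelp was -0.0092 without the filter, -0.0069 with a stricter one, -0.012 with upper-quartile scaling, -0.13 with voom, -0.040 with log2(TPM + 1), -0.029 with log2(TPM + 0.1) and -0.0028 with effective lengths. Leaving out single libraries gave -0.13 to 0.18 for Fmod, -0.31 to 0.083 for Podn and -0.48 to 0.30 for Prelp. The interaction reversed with log2(TPM + 1) and log2(TPM + 0.1) for Dcn (0.018 and 0.018), Fmod (0.066 and 0.071) and Podn (0.16 and 0.17). Without single libraries it spanned -0.67 to 0.25 for Dcn, -0.13 to 0.22 for Bgn, -1.31 to 0.66 for Lum, -0.81 to 0.50 for Fmod, -1.17 to 0.72 for Podn, -0.66 to 1.84 for Prelp and -0.35 to 1.60 for Omd, and Omd's genotype change -0.75 to 0.18. Sparse counts limit Omd and Kera.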
